A study of Arabidopsis thaliana with 58 samples.

Results

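The genes described here are the 5 DELLA genes and the 3 genes for gibberellin receptors of Arabidopsis, 8 of the 33331 nuclear genes for which positions were given. They were chosen by name and locus identifier: GAI, RGA, RGL1, RGL2 and RGL3 for the DELLA proteins, and GID1A, GID1B and GID1C for the receptors. The rule uses no measured value. The series profiled histone H3K4 methylation and binding of the chromatin remodeler PICKLE (PKL) by ChIP-seq in whole seedlings aged 9 days and kept in constant white light. Mono-, di- and trimethylation (H3K4me1, H3K4me2, H3K4me3) were mapped in the Col-0 wild type (WT) and in the mutant pkl, with 3 libraries for each pairing. An anti-PKL antibody was used in WT and in the lines jaw-5D, pifQ and hy5, also with 3 libraries each. RNA was sequenced in 3 libraries of pkl. All groups were grown alike to the same age, and the labels name the mutants as pkl, jaw-5D, pifQ and hy5 with no further allele.

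Gibberellins are growth hormones of plants. A GID1 receptor that has bound the hormone binds a DELLA protein, and an SCF ubiquitin ligase with the F-box protein SLY1 then marks the DELLA protein for breakdown. DELLA proteins restrain growth by binding transcription factors, among them PIF factors, several of which pifQ lacks, and TCP factors. PKL is a CHD3-type remodeler, and pkl mutants were first known for embryonic traits in roots that gibberellin can suppress. In jaw-5D, a microRNA lowers transcripts of CIN-class TCP factors, and hy5 lacks a light-signalling factor of the bZIP family.

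Each library gave 1 peak list, and the amount of a mark at a gene is given as the bp of a window that lie under called peaks. The window is the gene for H3K4 methylation, and the gene plus 1000 bp upstream for PKL. Lists held 14395 to 15441 peaks for H3K4me1, 19880 to 21880 for H3K4me2 and 16413 to 16899 for H3K4me3. PKL lists held 11379 to 13979 peaks in jaw-5D, pifQ and hy5, but 821, 632 and 2824 in WT replicates 1, 2 and 3. The WT PKL lists end at q = 0.01 and the others at q = 0.05, so the format of the list coincides with the genotype in each comparison with WT, and list format and genotype cannot be told apart. No anti-PKL ChIP from pkl was used here, so the background of the antibody is unknown. The lists hold no read totals, and the ChIP depth is therefore unknown. RNA totals ran from 17300314 to 17656899 counts. The transcript of PKL itself stood at 29.6, 31.9 and 33.9 TPM (transcripts scaled for gene length and to a common total per library) in the pkl libraries, and with no WT library used here and no pkl allele given this does not check the label. Shoot markers (CAB1, RBCS1A and CAB3) averaged 2747 to 24411 TPM. The 5 root markers averaged 0.782 (PLT1), 1.38 (WOX5), 5.03 (COBL9), 7.65 (SHR) and 25.1 TPM (SCR). Whole seedlings hold both organs, and these levels do not measure the share of each.

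All 8 genes carried PKL peaks in the lines jaw-5D, pifQ and hy5. With at least 50 bp counted as bound, 7 of the 8 were bound in all 9 libraries of these lines, and GID1C in 8 of 9. The background was 16.7% of all nuclear genes and 18.3% of protein-coding genes bound in all 9. It was higher among protein-coding genes with H3K4me3 in 3 WT libraries, at 26.9%, and at 36.5% for those with 1 exon. In WT the number of the 8 genes bound was 1, 0 and 3 in replicates 1, 2 and 3. Over all genes, 1.98%, 1.45% and 6.70% were bound in these 3 libraries, against 27.1% to 32.4% in the other 9.

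**Figure D1:**
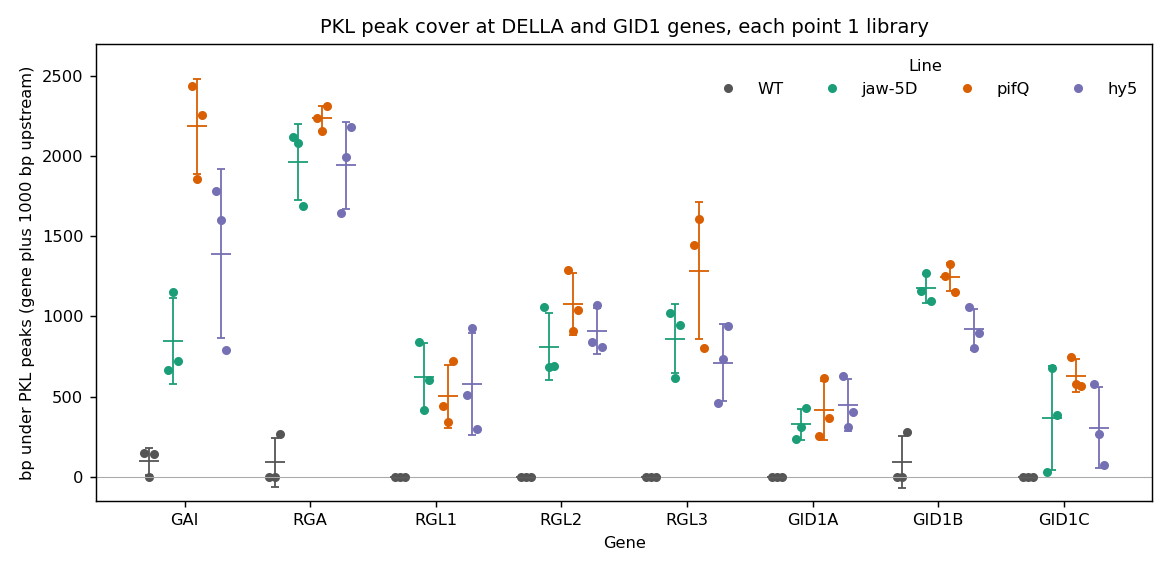
Base pairs under PKL peaks in each gene plus 1000 bp upstream (vertical axis, bp), for 3 libraries of each line (points), with the mean (dash) and SD (bars). RGA lies between 1647 and 2316 bp in all 9 libraries of jaw-5D, pifQ and hy5, GID1A between 238 and 629 bp, and the WT points lie at 0 except at GAI, RGA and GID1B.

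Among the receptor genes, GID1B (AT3G63010, chromosome 3, 23289425 to 23291486, plus strand, 2 exons, TAIR10) had the most PKL cover. It held 0, 0 and 280 bp in WT, 1156, 1274 and 1099 bp in jaw-5D, 1252, 1329 and 1155 bp in pifQ, and 1058, 806 and 894 bp in hy5. Every library of the 3 lines lay above every WT library, and hy5 was the lowest of the 3 lines. A pair of peaks made up this cover. The nearer peak spanned the gene start in 9 of 9 libraries, with its summit at −365 to 4 bp from the start (minus means upstream). The other reached across the upstream edge of the window in 9 of 9 libraries. In hy5 replicate 3 it was a block of 3060 bp from −3946 to −887 bp that overlaps other genes upstream, with its summit at −3641 bp. Elsewhere its summit lay at −1130 to −1048 bp. WT replicate 3 had a peak across the upstream edge, with its summit at −1137 bp, and one from −358 to −126 bp, with its summit at −160 bp, which did not reach the gene start. The authors' fold enrichment of these WT peaks was 4.42 and 4.12. In the 9 libraries it ran from 2.99 to 4.90 at the edge peak and from 3.06 to 4.39 at the start peak.

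GID1A (AT3G05120, chromosome 3, 1430471 to 1432778, plus strand, 2 exons) had a short peak at its start. It was listed at 0 bp in all 3 WT libraries, and held 238, 310 and 432 bp in jaw-5D, 257, 618 and 366 bp in pifQ, and 629, 309 and 407 bp in hy5. The peak spanned the gene start in 8 of 9 libraries. In these its fold enrichment was 1.79 to 2.92, and it ranked above 4.88% to 64.1% of the peaks in its list. The mean cover of the window was 396 ± 144 bp (SD over the 9 libraries). It exceeded that of 15.3% of the 4879 protein-coding genes bound in all 9. A further peak crossed the window's upstream edge in 2 libraries, both of hy5 (replicates 1 and 3), with summits at −1691 and −1663 bp and ranks above 93.6% and 93.5% of the peaks in their lists. Its part inside the window is included in the cover of these 2 libraries.

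GID1C (AT5G27320, chromosome 5, 9629087 to 9631210, plus strand, 2 exons) was bound at its other end. A peak spanned the end of the gene in 9 of 9 libraries of the 3 lines, with its summit 2244 to 2338 bp from the start, beyond the gene's length of 2124 bp. The authors' fold enrichment at this summit ran from 3.10 to 5.10. Much of that peak lay outside the window, and the cover was 0 bp in all 3 WT libraries, 30, 679 and 387 bp in jaw-5D, 750, 578 and 567 bp in pifQ, and 579, 265 and 75 bp in hy5. The libraries of jaw-5D and hy5 spread widely, and those of pifQ did not. A weaker peak spanned the gene start in 5 of 9 libraries.

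RGA (AT2G01570, chromosome 2, 255249 to 257550, minus strand, 1 exon), with GAI a main repressor of stem growth, had the most PKL cover of the 8 genes. It held 0, 0 and 267 bp in WT, 2119, 2084 and 1691 bp in jaw-5D, 2238, 2159 and 2316 bp in pifQ, and 1647, 1996 and 2183 bp in hy5. Its mean of 2048 ± 233 bp over the 9 libraries exceeded that of 97.2% of the protein-coding genes bound in all 9, whose median was 645 bp. The cover lay over the gene body, and no peak reached the gene end. The peaks were long rather than steep: the fold enrichment of the strongest peak per library ran from 1.85 to 3.75, with its summit 575 to 1997 bp from the start. In WT replicate 3 the peak had its summit at 1700 bp and a fold enrichment of 3.81.

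GAI (AT1G14920, chromosome 1, 5149226 to 5151354, plus strand, 1 exon) is the closest relative of RGA, and its PKL peaks were laid out otherwise. It held 150, 0 and 142 bp in WT, 663, 1153 and 725 bp in jaw-5D, 2439, 1860 and 2259 bp in pifQ, and 1781, 1603 and 791 bp in hy5. The gene had peaks at 3 places in each of the 9 libraries of the lines: upstream with the summit at −1253 to −1175 bp, over the gene start, and over the gene end. The upstream peak had a fold enrichment of 3.95 to 5.86 and the end peak of 3.36 to 5.002, while the start peak ran from 2.105 to 2.63. In WT the upstream peak was present in replicate 3, with a fold enrichment of 6.56. The end peak was present in WT replicates 1 and 3, at 5.15 to 6.39. These WT folds lay above those of the 9 libraries at the same places. The start peak was in no WT list.

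The strongest PKL peak at GAI ranked above 94.0% to 98.9% of the peaks in its list in the 9 libraries, by the authors' q-value. Its summit lay outside the window, upstream or, in jaw-5D replicate 2, beyond the gene end (2176 bp, gene length 2129 bp). When each list was cut to its 632 strongest peaks, the number in the shortest list, GAI kept 150, 0 and 46 bp in WT, and at least 50 bp in 7 of the 9 other libraries. That cover is the part inside the window of upstream or gene-end peaks whose summits lay outside it. The other 7 genes kept 0 bp in WT. GID1C kept 331 bp in pifQ replicate 2, RGL2 kept 7 bp in hy5 replicate 3, and the remaining 5 genes kept 0 bp in all 9. The RGL2 value is the edge of a peak that runs from −1630 to −994 bp and overlaps 2 other genes upstream.

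**Figure D2:**
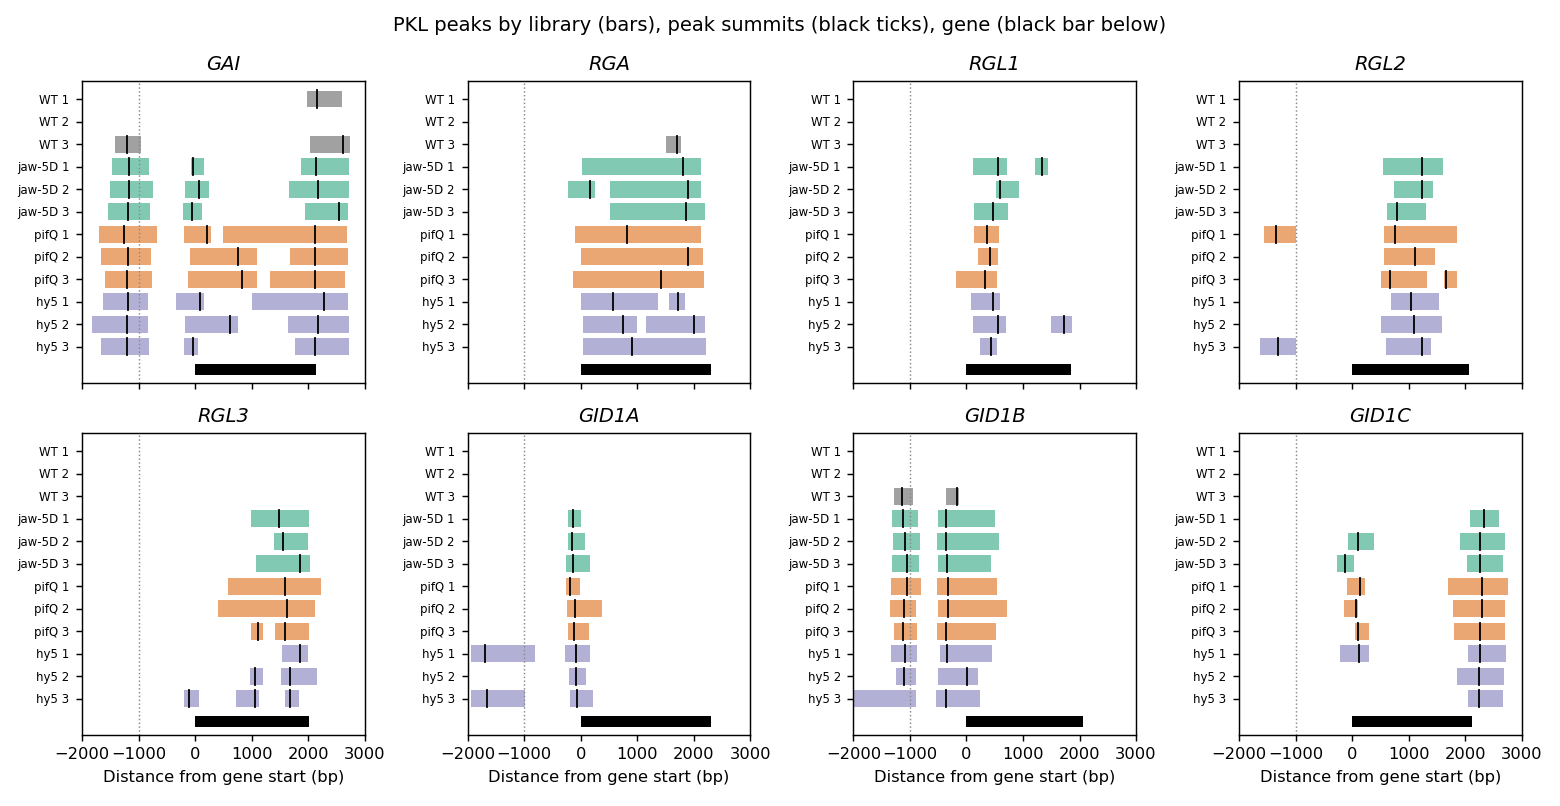
PKL peaks by library (bars) along the distance from the gene start (horizontal axis, bp, in the direction of transcription), with peak summits (black ticks), the gene (black bar) and the upstream edge of the window (dotted line). GAI has 3 separate places of binding, RGA a broad body, GID1B a pair of peaks at and before the start, and GID1C a peak beyond the gene end.

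RGL1, RGL2 and RGL3, the other DELLA genes, were listed at 0 bp in all 3 WT libraries. RGL1 (AT1G66350, chromosome 1, 24748195 to 24750043, plus strand, 1 exon) held 841, 416 and 606 bp in jaw-5D, 440, 344 and 721 bp in pifQ, and 512, 928 and 299 bp in hy5. The 3 lines overlapped, and the summit of the strongest peak lay 321 to 589 bp from the start, in the gene body. RGL2 (AT3G03450, chromosome 3, 819337 to 821406, minus strand, 1 exon), the main DELLA repressor of germination, held 1056, 686 and 694 bp in jaw-5D, 1287, 908 and 1040 bp in pifQ, and 842, 1071 and 810 bp in hy5. RGL3 (AT5G17490, chromosome 5, 5764063 to 5766077, minus strand, 1 exon), known for its part in jasmonate responses, held 1024, 617 and 945 bp in jaw-5D, 1443, 1611 and 801 bp in pifQ, and 460, 735 and 940 bp in hy5. The lines overlapped at RGL2 and at RGL3 as well. The strongest RGL3 peak had its summit 1066 to 1859 bp from the start, towards the end of the gene, and a fold enrichment of 1.98 to 2.66.

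Each line was compared with WT to see where PKL binding changes when TCP, PIF or HY5 factors are altered. Centring removed the shift of the 261 genes bound in every PKL library (1.15, 1.23 and 1.11 on the log2 scale for jaw-5D, pifQ and hy5). It did not remove all of the common difference: the median tested gene still stood 0.82, 0.73 and 0.6 above WT. Relative to the removed shift, 6 of the 8 genes had longer PKL cover in jaw-5D, 7 in pifQ and 7 in hy5 (limma, adjusted p at most 0.05). The background of genes called longer was 35.2%, 33.2% and 32.8% of the 11782 tested. All 8 genes lay above WT with no overlap between the libraries in each line, where the background was 65.9%, 66.6% and 58%. The 8 genes passed the filter on low cover through the libraries of the mutant lines, so these counts are a description. The 3 comparisons share the WT libraries.

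RGA gave log2 differences of 2.59, 2.69 and 2.60 from WT in jaw-5D, pifQ and hy5 (SE 0.36; limma adjusted p = 0.000326, 0.000274 and 0.000337). GID1B gave 1.88, 1.88 and 1.59 (SE 0.37; adjusted p = 0.00231, 0.00242 and 0.00611), and GAI 1.19, 2.41 and 1.85 (SE 0.38; adjusted p = 0.0293, 0.000656 and 0.00323). These log2 values depend in part on the 100 bp added to every value, since WT libraries stood at 0. For RGL1, RGL2, RGL3 and GID1A, with WT at 0 throughout, the bp values above are the measure of the difference, and no fold is given. None of the 8 genes, RGA, GID1B and GAI included, would have passed the filter on the WT libraries alone. The calls and p-values of all 8 are therefore a description too. RGL1, RGL2 and RGL3 passed in all 3 lines. GID1A passed in pifQ (adjusted p = 0.0323) and hy5 (0.0125) and not in jaw-5D (0.0590). GID1C passed in none, with adjusted p = 0.412, 0.0646 and 0.452. Without centring, all 8 genes passed as longer in each line, as did 67.8%, 68.6% and 61.7% of all tested genes.

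When every list was cut to 632 peaks, 1 of the 8 genes, GAI, kept enough cover to be tested, and it did not pass in jaw-5D, pifQ or hy5 against WT (limma adjusted p = 0.339, 0.884 and 0.763). The calls of the other genes could not be checked at equal list length. With every list cut at −log10 q of at least 2, the limit of the WT lists, 6, 8 and 7 genes passed. Several calls also changed when 1 library was left out. GAI in jaw-5D had adjusted p = 0.103 without jaw-5D replicate 2, 0.0528 without jaw-5D replicate 3 and 0.160 without WT replicate 2, and 0.556 over the gene without its upstream part. RGL1 in pifQ had 0.0891 without pifQ replicate 3, and 0.0731, 0.0535 and 0.0679 without WT replicates 1, 2 and 3. GID1A in pifQ had 0.120 and 0.0587 without pifQ replicates 2 and 3, and 0.0974, 0.0609 and 0.0803 without WT replicates 1, 2 and 3. GID1C in jaw-5D passed without jaw-5D replicate 1 (0.0426).

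Between the lines, whose lists share a format, 0 of the 8 genes passed in pifQ against jaw-5D, hy5 against jaw-5D or hy5 against pifQ (limma, either direction; background 2.46%, 2.55% and 1.05%). At an unadjusted p under 0.05 (limma) the counts were 1, 0 and 0 of the 8, where 13.4%, 14.7% and 10.3% of all 11782 tested genes met that limit. That 1 gene was GAI in pifQ against jaw-5D, 2186 ± 296 bp against 847 ± 267 bp (log2 difference 1.30, SE 0.41, limma unadjusted p = 0.00986, adjusted p = 0.183). The 3 pifQ libraries lay above the 3 jaw-5D libraries. The gene itself held 1792 ± 213 bp in pifQ and 475 ± 212 bp in jaw-5D, and the upstream parts held 394 ± 102 and 372 ± 96.2 bp. With 1000 bp added in place of 100, the gene passed (adjusted p = 0.0203).

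Libraries of 2 lines did not overlap in 4 further cases, none past the test. RGA was higher in pifQ than in jaw-5D (limma adjusted p = 0.975), and with GAI it was 1 of 2 genes of the 8 to lie above, where 9.42% of all tested genes did so. GID1B was lower in hy5 than in jaw-5D (919 ± 128 against 1176 ± 89.3 bp, adjusted p = 0.834), the 1 gene of the 8 to do so, where 12.1% of all tested genes did. GID1B and GAI were lower in hy5 than in pifQ (adjusted p = 0.891 and 0.704), 2 of the 8, where 11.4% of all tested genes were.

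The H3K4 methylation of the 8 genes fell into distinct layouts. H3K4me3, a mark of active gene starts, was present in all 6 libraries at each gene. At 7 of them it began within 101 bp of the gene start in every library, and at RGL3 it lay in 2 blocks. At the DELLA genes it ran over most of the gene, and at GID1A and GID1C it stopped midway. In WT, H3K4me3 covered 86.0 ± 1.00% of RGA (SD, n = 3), 83.0 ± 2.35% of GAI, 82.4 ± 0.390% of RGL2, 67.5 ± 1.95% of RGL3 and 63.7 ± 4.66% of RGL1. It covered 63.2 ± 2.04% of GID1B, 45.6 ± 0.969% of GID1A and 43.3 ± 1.22% of GID1C. The median protein-coding gene with H3K4me3 in 3 WT libraries had 30.4%, and RGA exceeded 95.6% of the 15638 such genes.

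**Figure D3:**
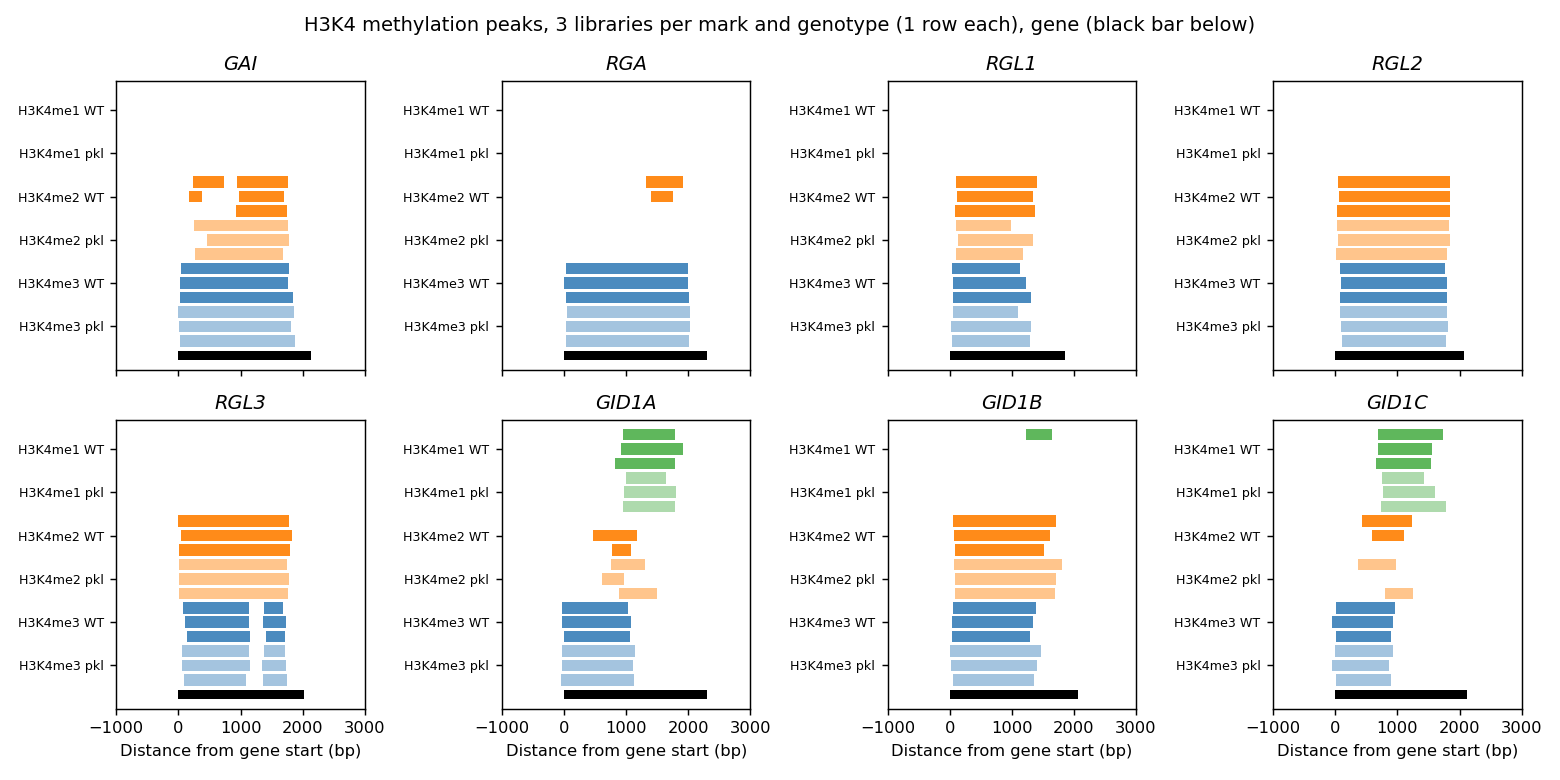
Peaks of H3K4me1 (green), H3K4me2 (orange) and H3K4me3 (blue) in 3 WT libraries (dark) and 3 pkl libraries (pale), 1 row per library, along the distance from the gene start (horizontal axis, bp), with the gene as a black bar. H3K4me1 is absent from the 5 DELLA genes and lies over the later part of GID1A and GID1C, and H3K4me2 is nearly absent from RGA.

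H3K4me1, usually a mark of gene bodies, had 0 bp at all 5 DELLA genes in all 6 libraries. The DELLA genes have 1 exon each, and 78.8% of the 5366 protein-coding genes with 1 exon also had 0 bp in all 6 libraries, as did 69.7% of the 2174 of these with H3K4me3 in WT. Of all protein-coding genes with H3K4me3 in WT, 22.6% had none. GID1A and GID1C, with 2 exons, carried H3K4me1 in all 6 libraries, from 650 to 1004 bp after the start onwards. GID1B, also with 2 exons, had 418 bp in WT replicate 1 and 0 bp in the other 5 libraries.

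H3K4me2 set the DELLA genes apart from each other. In WT, it covered 88.6 ± 0.248% of RGL3, 87.2 ± 1.08% of RGL2, 69.0 ± 2.36% of RGL1, 48.1 ± 11.7% of GAI and 13.8 ± 13.0% of RGA. The strongest H3K4me2 peak at RGL2 and RGL3 ranked above 91.8% to 99.7% of the peaks of its list in the 6 libraries, and the H3K4me3 peak of these genes above 17.6% to 51.1%. RGA was the reverse. Its H3K4me2 peaks ranked above 0.651% and 5.90% of their lists in the 2 WT libraries that had one, and its H3K4me3 peak above 69.8% to 99.0%. Among the receptor genes, H3K4me2 covered 75.2 ± 5.14% of GID1B, 20.7 ± 19.2% of GID1C and 14.6 ± 15.2% of GID1A.

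**Figure D4:**
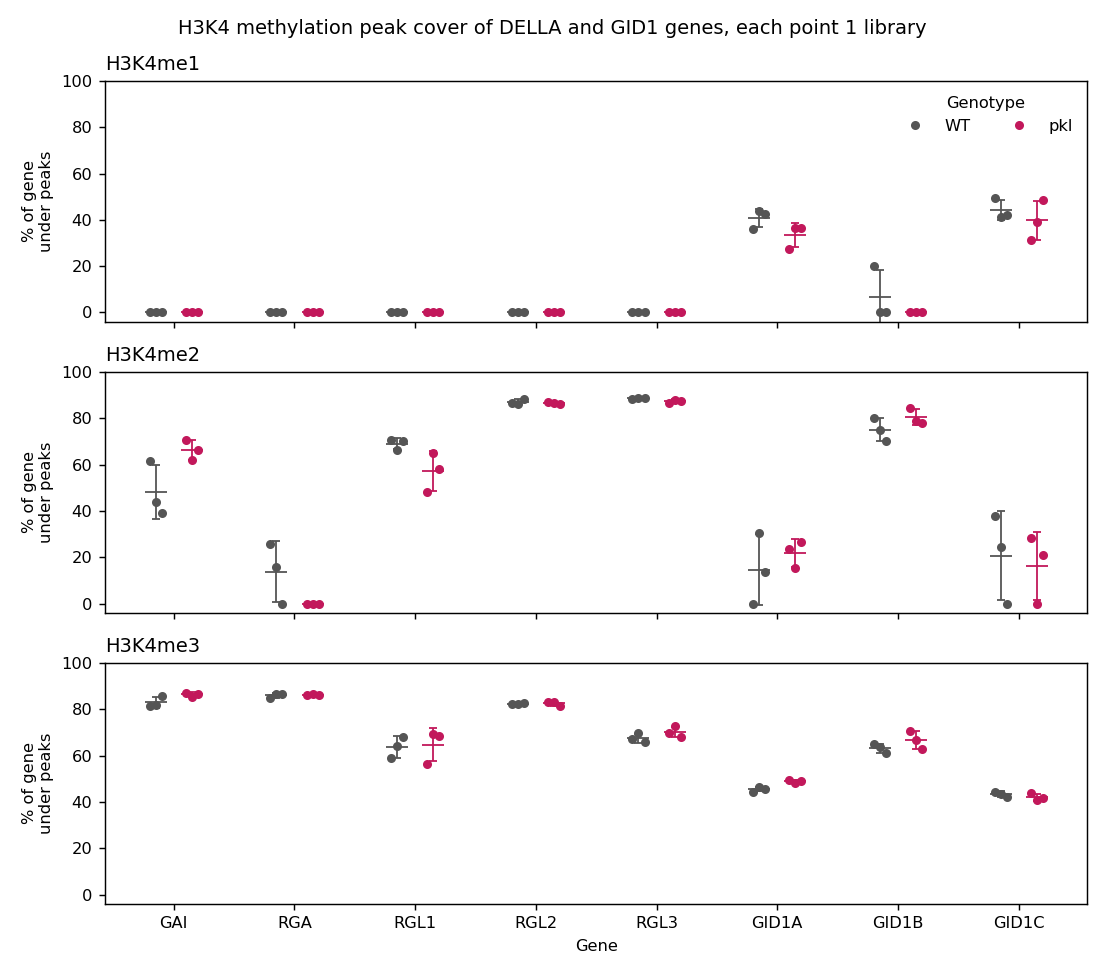
Share of each gene under peaks (vertical axis, percent), with 1 panel per H3K4 mark and 1 point for each of 3 WT and 3 pkl libraries, with the mean (dash) and SD (bars). WT and pkl overlap at most genes and marks, while GAI, RGL1 and, by a narrow gap, RGL3 are apart for H3K4me2 and GID1A for H3K4me3.

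The comparison of pkl with WT asked whether these marks depend on PKL. No gene of the 8 passed for any mark: 0 of 2 tested for H3K4me1 (background 0.697% called in either direction), 0 of 7 for H3K4me2 (1.58%) and 0 of 8 for H3K4me3 (1.53%). At an unadjusted p under 0.05 (limma) the counts were 0, 1 and 1, where 7.5%, 14.0% and 13.4% of all tested genes met that limit. For H3K4me1, GID1A held 837, 1010 and 979 bp in WT and 634, 846 and 843 bp in pkl, which overlap (log2 difference −0.26, SE 0.13, limma adjusted p = 0.769). GID1C held 1049, 876 and 896 bp in WT and 669, 831 and 1033 bp in pkl (−0.15, SE 0.16, adjusted p = 0.852). These values are on the log2 scale after 100 bp were added, and a miss of the threshold at 3 against 3 libraries does not show that the genotypes act alike.

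In H3K4me2 the pkl libraries were higher by 0.16 on the log2 scale over the 16261 genes marked in every library. Log2 values are given relative to that shift. RGL1 held 1303, 1225 and 1298 bp in WT and 887, 1205 and 1072 bp in pkl (log2 −0.42, SE 0.10, limma unadjusted p = 0.00668, adjusted p = 0.201). All 3 pkl libraries lay below all 3 of WT, and RGL3 showed this too, at 1781, 1786 and 1791 bp against 1743, 1774 and 1766 bp (adjusted p = 0.410). Of all tested genes, 3.8% lay below in this way. At GAI the pkl libraries lay above those of WT, with 1307, 938 and 830 bp in WT and 1505, 1319 and 1416 bp in pkl (log2 0.29, SE 0.17, adjusted p = 0.451), as did 18.8% of all tested genes. The map of marks shows 2 blocks of H3K4me2 at GAI in 2 WT libraries and 1 unbroken block in each pkl library. RGA held 596, 359 and 0 bp in WT and 0 bp in all 3 pkl libraries, and was not tested because only 2 libraries reached the minimum of 150 bp.

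For H3K4me3, GID1A held 1027, 1071 and 1056 bp in WT and 1143, 1116 and 1131 bp in pkl, with no overlap. The log2 difference was 0.095 (SE 0.025, limma unadjusted p = 0.0122, adjusted p = 0.249), and 16.2% of all tested genes were likewise above WT with no overlap. The other 7 genes overlapped between genotypes. RGA, for example, had 1954, 1997 and 1990 bp in WT and 1983, 1993 and 1987 bp in pkl. Adjusted p-values of the 8 genes ran from 0.249 to 0.960.

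RNA levels in pkl spanned a wide range. RGA had 42.2, 42.8 and 41.8 TPM, the highest of the 8, followed by GID1A with 23.4, 23.4 and 25.5 TPM and GAI with 20.3, 22.5 and 21.7 TPM. GID1C had 9.39, 11.2 and 10.9 TPM and GID1B 8.75, 10.05 and 11.6 TPM, and these neighbours in the order overlapped. RGL1 followed with 5.85, 5.72 and 5.91 TPM, RGL2 with 4.15, 3.71 and 4.24 TPM, and RGL3 with 2.24, 1.98 and 2.64 TPM. No other neighbouring pair in the order overlapped between libraries. Counts behind these values ran from 51 (RGL3, replicate 2) to 1268 (RGA, replicate 1).

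RGA and GAI together made up 84.0 ± 0.999% of the summed DELLA transcripts (75.9 ± 1.01 TPM, SD, n = 3), and GID1A made up 53.9 ± 2.08% of the summed receptor transcripts (44.7 ± 3.23 TPM). In these whole seedlings, expression in fewer cells and less RNA per cell cannot be told apart. TPM is scaled per length, so levels can be set beside each other between genes. No WT RNA was used here, and no change with genotype is given. Taken in the order of RNA, the DELLA genes RGA, GAI, RGL1, RGL2 and RGL3 had 13.8%, 48.1%, 69.0%, 87.2% and 88.6% of their length under H3K4me2 in WT. In pkl, from which the RNA came, the shares were 0%, 66.4%, 57.0%, 86.8% and 87.4%. This ordering of 5 genes was picked out after the values were seen and has no test.

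**Figure D5:**
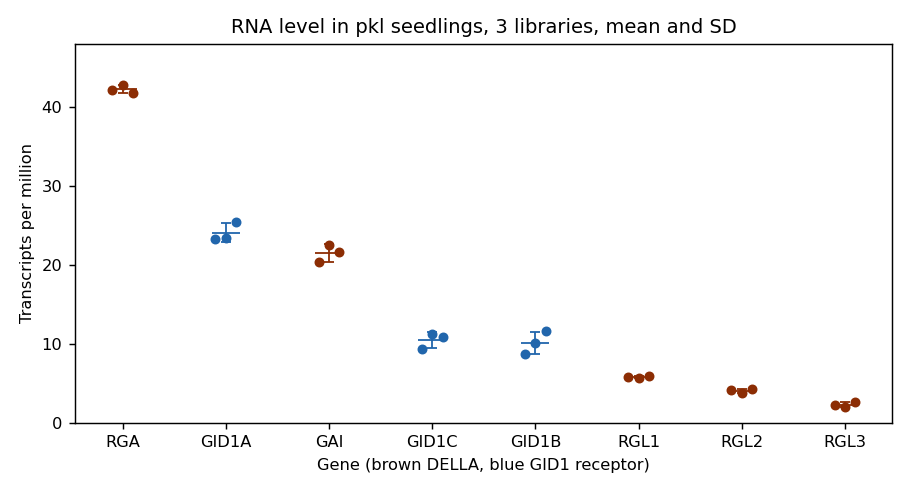
RNA level in pkl (vertical axis, TPM) of the 5 DELLA genes (brown) and 3 receptor genes (blue), with 1 point per library, the mean (dash) and SD (bars). RGA is highest at 41.8 to 42.8 TPM and RGL3 lowest at 1.98 to 2.64 TPM, and GID1C and GID1B overlap.

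A list of 34 other gibberellin genes (10 of signalling, 18 of metabolism and 6 targets) was set beside the 8. PKL bound 9 of the 34 in all 9 libraries of the lines, 2 in at least 1 WT library, and 12 in no library of the lines. Of all nuclear genes, these shares were 16.7%, 7.19% and 53.1%. Genes with longer PKL cover than WT numbered 8 in jaw-5D, 7 in pifQ and 8 in hy5 of 19 tested (limma, centred, backgrounds as above). Like the 8 genes, these would not have passed the filter on the WT libraries alone, so their calls are a description. Among them were IDD2, a DELLA partner (1222 ± 50.7 bp in jaw-5D), BOI, a RING protein that binds DELLA proteins (709 ± 337 bp), and GASA4, a gibberellin-induced gene (1247 ± 46.2 bp), all at 0 bp in WT. GNC, a GATA factor gene repressed by gibberellin, had 667 ± 370 bp in jaw-5D, and GA2OX8, a gibberellin-inactivating oxidase, had 334 ± 68.8 bp. GA2OX6, another inactivating oxidase, had 1617 ± 204 bp in jaw-5D against 0, 0 and 348 bp in WT. SCL3, a GRAS protein that opposes DELLA proteins, was bound in 2 WT libraries (0, 397 and 421 bp) and in all 9 others, and passed in none of the comparisons with WT (adjusted p from 0.612 to 0.929). Its libraries lay above those of WT without overlap in all 3 lines, and without centring it passed in jaw-5D (limma adjusted p = 0.0248) and pifQ (0.0283) and not in hy5 (0.0816).

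Between the lines, GASA6, a gibberellin-induced gene of growth, was the 1 gene of the 34 to pass. This was 1 of 19 tested in pifQ against jaw-5D, where 2.46% of all tested genes passed. GASA6 had 890 ± 108 bp in pifQ and 371 ± 64.3 bp in jaw-5D (log2 difference 1.07, SE 0.19, limma adjusted p = 0.0152). In hy5 against jaw-5D and hy5 against pifQ, 0 of 19 passed (background 2.55% and 1.05%). For the histone marks, 0 of 10 passed for H3K4me1 (background 0.697%), 1 of 28 for H3K4me2 (1.58%) and 0 of 23 for H3K4me3 (1.53%). The 1 gene was MYB65, a GAMYB-type factor gene of anthers and seeds, with 708 ± 73.3 bp of H3K4me2 in pkl and 299 ± 27.8 bp in WT (log2 0.86, SE 0.082, adjusted p = 0.00693).

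By the share of the window under peaks over all 30 lists, RGL2 and RGL3 were the closest pair among the 8, with a root mean square difference of 8.51 percentage points. RGL3 and GID1B followed with 9.2, and GID1A and GID1C with 10.1. RGA stood at least 27.2 points from each of the other 7, with GAI the nearest. Over all nuclear genes, the closest to RGA were AGT and PSAL (6.70 and 7.08 points), and the closest to GAI were CAO and ATAUX2-11 (8.28 and 8.58 points). GID1A was closest to SFGH and EMB1075 (6.91 and 7.11 points), GID1B to MYB20 and GATA6 (both 6.80 points), and GID1C to PPC2 and AT2G46550 (7.97 and 8.06 points). RGL1 was closest to AT1G28685 and AT1G28680 (both 6.21 points), RGL2 to AT4G01870 and AT4G33160 (4.89 and 4.94 points), and RGL3 to AT5G12940 and AT3G14240 (both 7.80 points).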

How the data were processed

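Peak lists of 30 ChIP-seq libraries and RNA tables of 3 pkl libraries were used, with groups taken from the sample titles. Per the submitters' processing notes, tools were MACS2 2.2.5, Bowtie2 2.3.3, HISAT2 2.1.0, deepTools, SAMtools 1.6 and fastp, on TAIR10, with no role given. Peaks were called per library, and the control library is not given in the sources used here. In the deposited lists the score is 10 times −log10 q as a whole number, and the ratio is the authors' fold enrichment at the summit. The deposited lists also hold −log10 p and −log10 q and the summit offset. The deposited RNA tables give raw counts with exon lengths, and values the authors call FPKM. These deposited values are TPM by their arithmetic: count per kb over the library's summed count per kb, on a fixed common total, to within 0.01%. They are called TPM here. RNA has 1 group and no test, so the unit named in the design (FPKM) changed no method. A total of 6 RNA columns that match no sample were not used.

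For each gene, bp under peaks were summed, and limma 3.58.1 (R 4.3.3; lmFit, eBayes) was run on log2(bp + 100), two-sided, with Benjamini-Hochberg adjustment over all genes tested and a threshold of 0.05. Genes needed 150 bp (H3K4 marks) or 50 bp (PKL) in at least 3 libraries. H3K4me2, the 3 PKL comparisons with WT and hy5 against pifQ were centred on the median of genes marked in every library of the antibody (261 genes for PKL). The 12 PKL libraries were fitted together. Replicates are described as biological, and p-values measure spread between these samples. Same-numbered libraries were not correlated beyond 0.1, and the numbers were not used as pairs in the main fit. With 3 libraries per group, this check cannot tell whether same-numbered libraries shared a batch. The code was tested on simulated data. Python 3.11.15 with pandas 2.3.3 and numpy 2.4.6 did the rest. Symbols came from RefSeq by locus tag, which matched 28932 genes and all 8 members. RefSeq lists RGA as RGA1. All 8 members are described. Of the 34 other pathway genes, those called are named (at most the 6 with the smallest adjusted p per comparison), as are those bound in at least 2 WT libraries. Likeness is given for the 2 nearest genes per member. Members, lists and rules were chosen with earlier results of these data known. Alternatives were other added bp, filters, q limits, windows, equal peak numbers, centring, the replicate block and leaving out each library. Input and Hi-C samples were not analysed here.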

Additional observations from a re-analysis of the deposited data

How the results depend on the processing

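Of 144 recomputed counts of the 8 genes past the threshold, 137 stayed within 1.5 times the value given, or at 0 where that value was 0. In PKL against WT, 14 of 16 did so in jaw-5D, 15 of 16 in pifQ and 13 of 16 in hy5. In every other comparison the value given was 0. With 1000 bp added in place of 100, the count was 3 in jaw-5D against WT, 4 in hy5 against WT and 1 in pifQ against jaw-5D. With an equal number of peaks per library it was 0 in jaw-5D, in pifQ and in hy5 against WT, with 1 gene (GAI) left to test, and over the gene only it was 4 in hy5 against WT. Fewer peaks or bp enter the equal lists and the gene-only window by construction, and the cause was not tested otherwise. Leaving out 1 library at a time gave 5 to 7 genes in jaw-5D against WT, 5 to 7 in pifQ and 7 to 7 in hy5, and 0 to 0 in each of the other comparisons. The replicate block gave 6, 6 and 7 genes against WT and 0 elsewhere. Under it GID1A in pifQ against WT missed the threshold (limma adjusted p = 0.0553), and over all genes it called 0, 188 and 165 genes for H3K4me1, H3K4me2 and H3K4me3, against 94, 302 and 256 without it. Of 532 recomputed values of single genes, 484 kept direction and call, 28 lost the call, 12 gained it and 8 changed sign. These belong to 35 results, those with no overlap between the groups and those for H3K4me1. Overlapping results for PKL, H3K4me2 and H3K4me3 were left out, so the set was picked by its outcome. The sign changes were GAI in jaw-5D against WT (log2 −1.003) and in hy5 against pifQ (0.20) with equal peak numbers, GID1A in jaw-5D and pifQ against WT over the gene only (−0.51 and −0.20) and with 1000 bp added (−0.076 and −0.030), and GID1C in jaw-5D and hy5 against WT with 1000 bp added (−0.061 and −0.095). These signs are relative to the shift of the genes bound in every PKL library, which centring removes: GID1A and GID1C had 0 bp in every WT library. In all 9 comparisons the count of all genes called moved by over 1.5 times under some setting: 0 to 332 for H3K4me1, 127 to 482 for H3K4me2 and 69 to 308 for H3K4me3, 88 to 7993, 77 to 8089 and 58 to 7267 for jaw-5D, pifQ and hy5 against WT, 84 to 438 for pifQ against jaw-5D, 58 to 452 for hy5 against jaw-5D and 14 to 200 for hy5 against pifQ. Without 1 RNA library, mean TPM ran from 42.0 to 42.5 (RGA), 21.0 to 22.1 (GAI), 5.79 to 5.88 (RGL1), 3.93 to 4.19 (RGL2), 2.11 to 2.44 (RGL3), 23.4 to 24.4 (GID1A), 9.40 to 10.8 (GID1B) and 10.1 to 11.1 (GID1C). These RNA values, and the fit of the 9 libraries of jaw-5D, pifQ and hy5 alone (0 genes called in each), were chosen after seeing the data. ChIP depth is unknown, and peak cover measures called length, not signal.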
